A study of Sorghum bicolor with 18 samples.

Results

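Removing the first leaf changed RNA levels in the axillary bud beneath it, and the size or the sign of that effect differed between 6 h and 3 h for 710 of the 21852 genes tested (3.25%), out of 34211 genes in the deposited table. The quantity compared is called the shift here. It is the log2 ratio of leaf-removed to intact buds at 6 h minus the same log2 ratio at 3 h, and each single ratio is called an effect. A positive shift means that the ratio was higher at 6 h than at 3 h, and it can come from the leaf-removed buds, from the intact buds or from both. The shift was called positive in 513 genes (2.35%) and negative in 197 (0.902%), at a Benjamini-Hochberg adjusted p under 0.05 from the edgeR quasi-likelihood test over all 21852 genes. Positive shifts were called in 36% of the tested DNA replication genes and in 33.3% of the kinesin and spindle genes. DNA repair, DNA methyltransferase, plastid chaperone and plastid transcription lists also exceeded the share over all genes. Those lists were drawn up after the calls were seen, so their counts support nothing on their own. Most genes with a shift of either sign were in none of the gene lists used here. Of the 710, 224 were in a list, 177 of these with a positive shift. Genes in lists with a negative shift included hormone, defence, stress and transport genes.

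The plants were Sorghum bicolor of cultivar 100M, treated 7 days after sowing, and the tissue was the bud of the first leaf axil. Leaf removal meant that the whole coleoptile and the first leaf were stripped from the culm, which exposed the bud without contact with it, while intact plants kept both. The 12 libraries compared fall into 4 groups of 3, namely leaf-removed buds at 6 h, intact buds at 6 h, leaf-removed buds at 3 h and intact buds at 3 h. Each library is a pool of 15 buds, and the 3 pools with the best RNA of 4 harvested per group were sequenced, so the p-values measure the spread between pools chosen in that way. The 6 libraries of 1 h of the same experiment entered the fit only through its estimate of spread, and their effects are given beside the shifts as values of the same treatment at an earlier time.

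Axillary buds may rest for long periods or grow out into branches, and a bud that grows must re-enter the cell cycle. Cells duplicate their DNA in S phase with origin recognition proteins, the MCM helicase, DNA polymerases and newly made histones, and they divide in mitosis with cyclins, kinesins and the spindle. Wounding of plants is known to raise jasmonate, and abscisic acid and cytokinin are known to restrain and to promote bud outgrowth.

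Gene names and roles here are those of the Arabidopsis genes that the deposited table pairs with each sorghum identifier, so 2 sorghum genes can carry 1 name. The names check the tissue only in part. BRANCHED1 (BRC1) marks axillary buds in Arabidopsis, and Sobic.002G198400, which carries that name, had 5.29, 5.53 and 5.298 CPM in leaf-removed and 5.62, 6.99 and 5.79 CPM in intact buds at 6 h, and 7.14, 7.71 and 6.54 CPM in leaf-removed and 6.78, 6.56 and 9.69 CPM in intact buds at 3 h, so it was read in all 12 libraries.

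The 12 libraries held 21.4 to 45.8 M exon reads (M is 1e6 reads), 27.4 M at the median. Leaf-removed 6 h d, intact 6 h d and leaf-removed 3 h b deviated from their groups alike. Intron reads made up 4.92% to 5.26% of their gene reads and 3.20% to 4.82% of those of the remaining 9 libraries, where the 3 intact libraries of 3 h had 4.29% to 4.82%. With the 5 libraries of this kind in the 18 left out, 1940 shifts were positive (8.82%) and 1869 negative (8.5%) among 21993 genes, 17.3% in all, and 700 of the 710 were called with the same sign. These 5 were picked from the same counts because they deviate, so less spread and more calls were to be expected without them. In that fit leaf-removed 6 h, intact 6 h and leaf-removed 3 h each lack a library. Counts without the 5 libraries are therefore no separate support here. The part of this deviation in the results was not tested.

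The most frequent kind of called shift was an effect that lessened. Of the 513 positive shifts, 250 were effects called lower at 3 h and smaller in size at 6 h, 154 were called higher at 6 h and larger than at 3 h, and 109 were called lower at 3 h and called higher at 6 h. Of the 197 negative shifts, 112 were effects called higher at 3 h and smaller at 6 h, 64 were called lower at 6 h and larger in size than at 3 h, and 21 were called higher at 3 h and called lower at 6 h. Effects of these kinds are called receding, growing and reversed here. In all there were 362 receding, 218 growing and 130 reversed effects.

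For scale, the effect itself was called in 34% of tested genes at 6 h (18% higher, 15.9% lower) and in 34% at 3 h (17.8% higher, 16.2% lower). The positive shifts had a median of 1.14 and the negative ones of -1.13, and the smallest called shift was 0.44 in size. At least a 2-fold difference between the ratios was reached by 325 positive and 119 negative shifts. The median over all 21852 genes was -0.044.

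The change sat mainly in the leaf-removed buds. Genes with a positive shift changed between 6 h and 3 h by a median log2 of 1.12 in leaf-removed buds and of -0.040 in intact buds, and 500 of the 513 changed more in leaf-removed buds. Genes with a negative shift changed by -0.98 in leaf-removed and 0.11 in intact buds, and 170 of the 197 changed more in leaf-removed buds. Over all genes, 1797 were called higher (8.22%) and 1335 lower (6.11%) at 6 h than at 3 h in leaf-removed buds, against 113 (0.517%) and 83 (0.38%) in intact buds. The shift and these changes share libraries and are different views of the same 12.

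The 1 h libraries take no part in the shift itself. At 1 h, 401 of the 513 genes with a positive shift were called lower in leaf-removed than in intact buds (78.2%, against 24.1% of all tested genes) and 12 were called higher. Of the 197 with a negative shift, 120 were called higher at 1 h (60.9%, against 24.8% of all genes) and 18 lower. Their median effect ran -0.85, -0.73 and 0.44 at 1, 3 and 6 h for positive shifts, and 0.83, 0.86 and -0.28 for negative shifts.

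**Figure D1:**
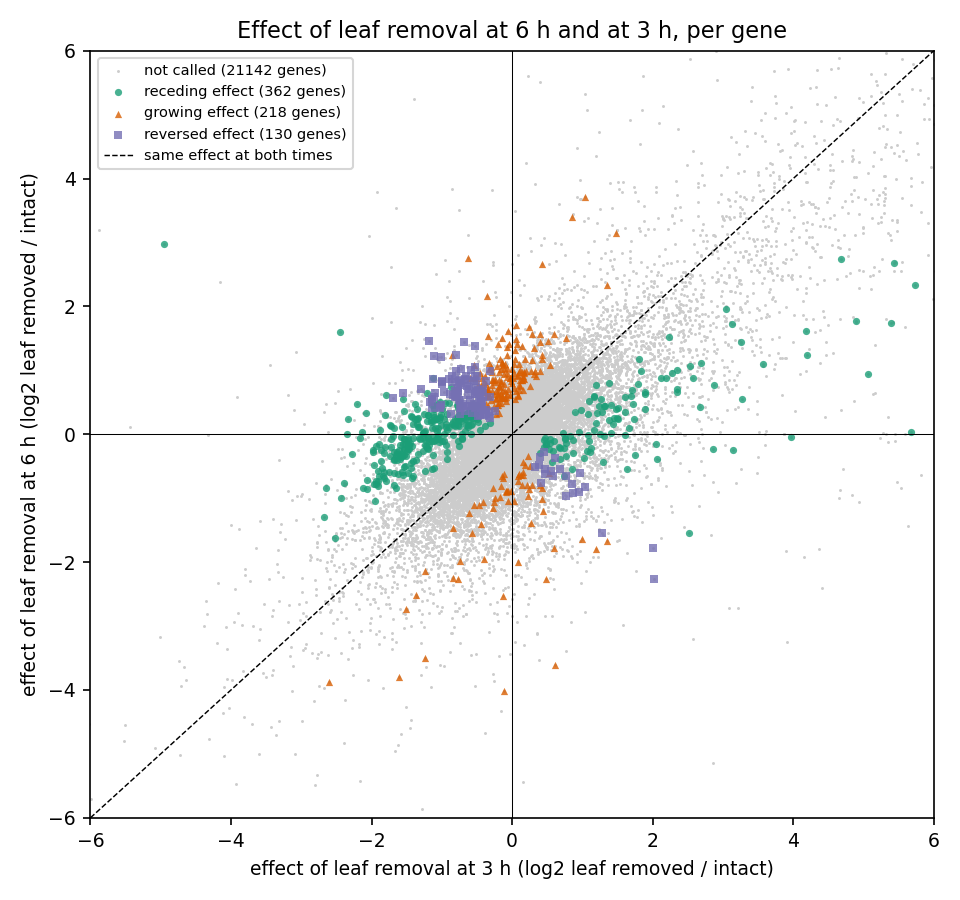
Log2 effect of leaf removal (leaf-removed over intact) at 6 h, on the vertical axis, against that at 3 h, on the horizontal axis, for each tested gene, with receding (362), growing (218) and reversed (130) effects in colour. The dashed diagonal marks equal effects, and the called genes lie off it, 513 above and 197 below. The axes end at 6 on each side, and 232 tested genes, 5 of them called, lie outside.

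DNA replication genes had 27 positive and 0 negative shifts among 75 tested (36% positive, against 2.35% of all genes), with a median shift of 0.75. The list's median effect was -1.29, -0.47 and 0.32 at 1, 3 and 6 h. At 1 h 60 members were called lower and 0 higher, at 3 h 38 lower and 1 higher, and at 6 h 10 lower and 30 higher. In leaf-removed buds 37 members were called higher at 6 h than at 3 h and 0 lower, and in intact buds 0 and 0. Of the 27, 14 effects were reversed, 8 growing and 5 receding. Summed over the list, leaf-removed buds had 5756, 5789.9 and 5968 CPM (counts scaled to library size) at 6 h against 3851, 4315 and 4888 CPM in intact buds, and 3351, 3487 and 3635 CPM at 3 h against 4352, 4692 and 5026 CPM in intact buds, from the lowest to the highest library. The groups did not overlap at either time, and leaf-removed buds were the higher group at 6 h and the lower group at 3 h. In bulk buds, fewer cells in S phase and less RNA per cell cannot be told apart.

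Origin licensing comes first in replication. ORC1A (Sobic.010G067900), the large subunit of the origin recognition complex, had 119.9, 138 and 137 CPM in leaf-removed and 87.6, 63.9 and 80.2 CPM in intact buds at 6 h. At 3 h it had 52.1, 46.5 and 46.4 CPM in leaf-removed and 74.9, 72.99 and 93.7 CPM in intact buds. Leaf-removed libraries lay above all intact ones at 6 h and below all of them at 3 h, for a shift of 1.51 ± 0.18 (adjusted p = 0.000408), and the effect at 1 h was -1.24 ± 0.13. ORC6 (Sobic.002G385400) had a shift of 1.54. The MCM genes, most of which encode the ring helicase that opens the origins, had 8 positive shifts among 12 tested (66.7%, against 2.35% of all genes). Their median shift was 0.85, and all 12 had been called lower at 1 h. MCM3 (Sobic.006G087500) had 17.5, 17.97 and 22.6 CPM in leaf-removed and 9.36, 8.597 and 10.5 CPM in intact buds at 6 h, and 10.6, 7.11 and 7.82 CPM in leaf-removed and 12.5, 12.3 and 17.3 CPM in intact buds at 3 h, again on opposite sides of the intact libraries without overlap (shift 1.75 ± 0.33, adjusted p = 0.00751). A second MCM3 gene (Sobic.009G172950) shifted by 1.07 ± 0.22 and MCM8 (Sobic.009G166400), outside the ring, by 1.15 ± 0.24. MCM4, MCM5, MCM6, MCM10 and the MCM2/3/5 family gene PRL had shifts of 0.80, 0.82, 0.89, 0.98 and 0.91. The count of 8 fell to 3 without leaf-removed 6 h d, without leaf-removed 3 h d or without intact 3 h c, and to 5 without intact 6 h d or intact 3 h b, while ORC1A, both MCM3 genes and MCM8 stayed called in each of the 12 leave-one-out fits.

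RNA levels of DNA synthesis genes followed the same course. Polymerase, primase and clamp genes had 11 positive shifts among 27 tested (40.7%, against 2.35% of all genes), with 8 reversed effects. A primase gene (Sobic.002G297500), which lays the primers, had 45.6, 43.9 and 53.3 CPM in leaf-removed and 31.6, 25.5 and 32.96 CPM in intact buds at 6 h. Its 3 h levels were 22.6, 21.05 and 21.2 CPM in leaf-removed and 40.3, 39.8 and 47.1 CPM in intact buds (shift 1.64 ± 0.21, adjusted p = 0.000722). The clamp loader gene RFC2 (Sobic.006G183100) had 88.5, 90.4 and 78.5 CPM in leaf-removed and 69.3, 57.7 and 61.7 CPM in intact buds at 6 h. The 3 h libraries held 36.4, 43.5 and 43.3 CPM in leaf-removed and 59.9, 62.9 and 67.5 CPM in intact buds (shift 1.08 ± 0.15, adjusted p = 0.000983). Leaf-removed libraries of both genes were above the intact ones at 6 h and below them at 3 h. EMB2780 (Sobic.004G049200), annotated as a DNA-directed DNA polymerase, shifted by 1.39 ± 0.19 (adjusted p = 0.000918) and its second copy (Sobic.005G066900) by 1.69. The catalytic subunit of polymerase epsilon TIL1 shifted by 1.67, the polymerase alpha genes POLA2 and ICU2 by 1.37 and 1.14, and POLD2 of polymerase delta by 1.06. For precursor supply, the ribonucleotide reductase genes RNR1 shifted by 1.84 (Sobic.004G336100) and 1.10 (Sobic.010G054600). The single-strand binding genes RPA70B, RPA70C and RPA32A had shifts of 1.44, 1.14 and 0.99. The list count was 19 to 31 with single libraries left out and 39 without the 5 libraries.

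**Figure D2:**
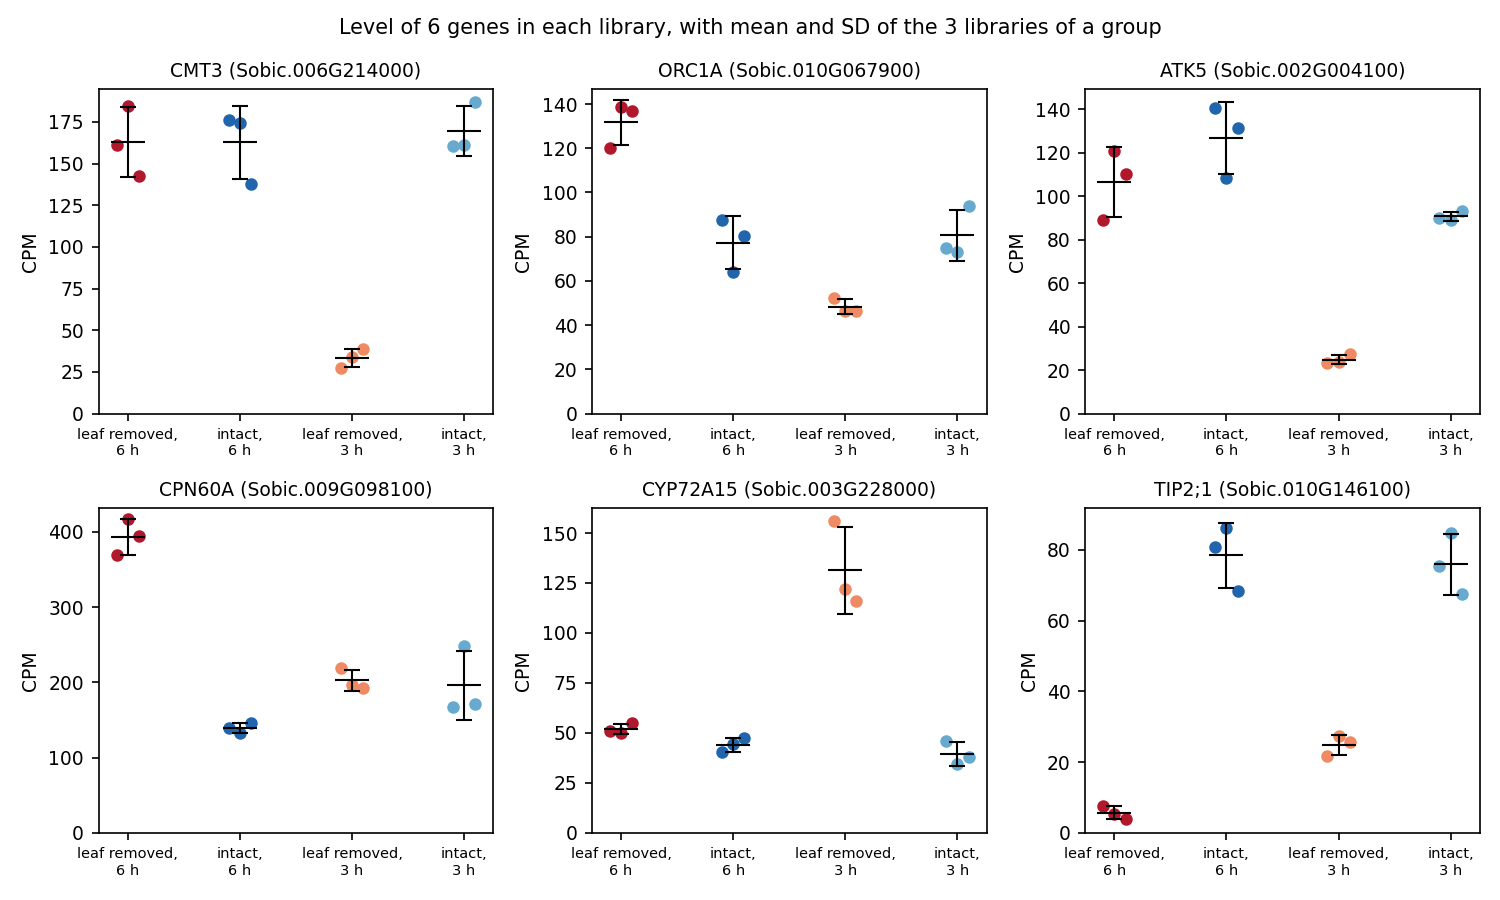
Level in CPM (vertical axes, starting at 0) of CMT3, ORC1A, ATK5, CPN60A, CYP72A15 and TIP2;1 in leaf-removed and intact buds at 6 h and 3 h, with 1 point a library and bars for the mean and SD of 3. Leaf-removed ORC1A lies above the intact libraries at 6 h and below them at 3 h, CMT3 and ATK5 overlap them at 6 h, CPN60A overlaps them at 3 h, and CYP72A15 (above) and TIP2;1 (below) stay on 1 side at both times.

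Mitotic genes also had positive shifts, and most of these were effects that receded. The 11 A- and B-type cyclins, which drive S phase and mitosis, had 7 positive shifts (63.6%, against 2.35% of all genes) with a median of 1.07. Of them 10 had been called lower at 3 h, and at 6 h 3 were lower and 2 higher. CYCA2;3 (Sobic.008G104000) had 34.6, 39.6 and 46.3 CPM in leaf-removed and 19.8, 12.4 and 18.9 CPM in intact buds at 6 h. Levels at 3 h were 15.8, 10.5 and 10.2 CPM in leaf-removed and 20.8, 19.5 and 23.1 CPM in intact buds. It was the reversed case, with all leaf-removed libraries above the intact ones at 6 h and below them at 3 h (shift 2.03 ± 0.31, adjusted p = 0.00153). CYCA3;1 (Sobic.001G169800) had 51.3, 50.8 and 45.6 CPM in leaf-removed and 46.6, 42.03 and 39.6 CPM in intact buds at 6 h, and 20.6, 24.7 and 25.2 CPM in leaf-removed and 46.2, 49.7 and 56.997 CPM in intact buds at 3 h, with overlap at 6 h and none at 3 h (shift 1.32 ± 0.19, adjusted p = 0.00106). CYCB2;4 (Sobic.006G179200) shifted by 1.07 ± 0.16 yet was still lower in all leaf-removed libraries at 6 h, with 53.2, 68.9 and 55.7 CPM in leaf-removed and 102, 76.97 and 92.8 CPM in intact buds at 6 h. CYCA3;2, CYCB2;3, CYCB1;2 and CYCA2;2 shifted by 2.42, 1.40, 1.22 and 1.01, and the kinase gene CDKB1;1 by 0.90. Among 12 D-type cyclins, which in Arabidopsis act at the entry into the cycle, 1 was called. It was CYCD1;1 (Sobic.008G147500, shift 1.01 ± 0.24, adjusted p = 0.0274), and this call was lost in 7 of 12 such fits, highest adjusted p = 0.0839.

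Kinesin and spindle genes had 18 positive and 0 negative shifts among 54 tested (33.3% positive, against 2.35% of all genes). Their median shift was 0.41, and 15 of the 18 effects were receding. CYCA2;2 is counted in this list too. At 3 h 32 members were called lower and 2 higher, and at 6 h 13 and 8. Over all genes the shares called lower and higher were 16.2% and 17.8% at 3 h, and 15.9% and 18% at 6 h. Summed over the list, leaf-removed buds had 3642, 3998 and 4438 CPM at 6 h, overlapping the 3661, 4404 and 4564 CPM of intact buds, and 2394, 2506 and 3054 CPM at 3 h, below the 3683, 4015 and 4086 CPM of intact buds. PAKRP1 (Sobic.006G035600), a kinesin of the phragmoplast that builds the new wall in Arabidopsis, had 102, 135 and 148 CPM in leaf-removed and 135, 109 and 147 CPM in intact buds at 6 h. Libraries of 3 h had 35.04, 31.2 and 29.1 CPM in leaf-removed and 105, 94.6 and 108 CPM in intact buds. It overlapped the intact libraries at 6 h and lay below them at 3 h (shift 1.67 ± 0.23, adjusted p = 0.00102). ATK5 (Sobic.002G004100), a spindle kinesin, shifted by 1.62 ± 0.20 (adjusted p = 0.000445) with effects of -0.25 ± 0.14 at 6 h and -1.87 ± 0.14 at 3 h. KP1 (Sobic.006G112800) shifted by 1.48 ± 0.21 and remained lower at 6 h, at -0.48 ± 0.14. The 3 POK2 kinesin genes shifted by 1.97, 1.61 and 1.03, the Aurora kinase genes AUR3 and AUR2 by 1.28 and 1.03, and MAP65-2, a bundler of microtubules, by 1.34.

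Chromosome structure genes behaved alike. Of 13 cohesin, condensin and SMC genes 5 had positive shifts (38.5%, against 2.35% of all genes). The shift was above 0 in all 13, and its median over all tested genes was -0.044. This list and the topoisomerase list were drawn up after the calls were seen, so their counts support nothing on their own. SMC3 (Sobic.009G184200) also carries the condensin names CAP-C and SMC4. It had 217, 243 and 295 CPM in leaf-removed and 228, 165 and 223 CPM in intact buds at 6 h, and 69.6, 60.9 and 55.2 CPM in leaf-removed and 217, 186 and 247 CPM in intact buds at 3 h, overlapping intact buds at 6 h and below them at 3 h (shift 2.11 ± 0.23, adjusted p = 0.000263). SMC2 (Sobic.003G393100), a condensin arm, shifted by 1.90 ± 0.27 (adjusted p = 0.00111). The cohesin gene SYN4 (Sobic.007G097000) was reversed, with effects of 0.66 ± 0.17 at 6 h and -0.77 ± 0.17 at 3 h (shift 1.43 ± 0.24, adjusted p = 0.00292). Topoisomerases, which untangle DNA, had 3 positive shifts among 11 (27.3%, against 2.35% of all genes). TOPII (Sobic.004G271300) had 605, 745 and 711 CPM in leaf-removed and 858, 664 and 777 CPM in intact buds at 6 h, and 166, 181 and 169 CPM in leaf-removed and 649, 584 and 678 CPM in intact buds at 3 h, overlapping at 6 h and apart at 3 h (shift 1.73 ± 0.18, adjusted p = 0.000213). TOP3A (Sobic.001G494300) shifted by 1.61 ± 0.19 and a type IA gene (Sobic.010G116800) by 1.67 ± 0.38, the second lost in 7 of 12 such fits, highest adjusted p = 0.0717.

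DNA repair genes had 17 positive and 0 negative shifts among 64 tested (26.6% positive, against 2.35% of all genes), with a median of 0.50. Of these effects 11 were receding and 6 reversed. The list was drawn up after the calls were seen, so its count supports nothing on its own. At 1 h 45 members were called lower and 3 higher, at 3 h 36 and 0, and at 6 h 10 and 12. BARD1 (Sobic.006G144700) and BRCA1 (Sobic.009G192700) form a partnership in recombination repair in Arabidopsis. BARD1 had 97.5, 104 and 92.7 CPM in leaf-removed and 79.5, 57.1 and 64.7 CPM in intact buds at 6 h. The level at 3 h was 27.8, 33.2 and 37.3 CPM in leaf-removed and 61.4, 75.8 and 78.8 CPM in intact buds (shift 1.69 ± 0.25, adjusted p = 0.00132), and BRCA1 shifted by 1.51 ± 0.24 (adjusted p = 0.00188). Both were above all intact libraries at 6 h and below them at 3 h. Mismatch repair was represented by MSH7 (Sobic.003G041700, shift 1.67 ± 0.26, adjusted p = 0.00193) and PMS1 at 0.92. The recombination genes RAD51B, RAD54 and MUS81 shifted by 1.99, 1.49 and 1.85, and the checkpoint kinase gene ATRAD3 by 1.19. SYN4 and SMC6B are held by this list and by the cohesin list.

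DNA methyltransferase genes are part of the chromatin list. Of 9 DNA methyltransferase genes 4 had positive shifts (44.4%, against 2.35% of all genes), in each of the 12 leave-one-out fits as well. CMT3 (Sobic.006G214000), which in Arabidopsis copies CHG methylation after replication, had 161, 185 and 143 CPM in leaf-removed and 176, 174 and 138 CPM in intact buds at 6 h. For 3 h the values were 27.6, 34.01 and 38.6 CPM in leaf-removed and 161, 161 and 187 CPM in intact buds. The groups overlapped at 6 h, and at 3 h all leaf-removed libraries lay below all intact ones (shift 2.35 ± 0.25, adjusted p = 0.000213). A second CMT3 gene (Sobic.004G197400) shifted by 1.87. MET1 (Sobic.001G055700), which copies CG methylation, had 9.53, 7.08 and 8.4000 CPM in leaf-removed and 8.51, 5.12 and 6.201 CPM in intact buds at 6 h, and 1.78, 1.64 and 1.36 CPM in leaf-removed and 6.04, 7.13 and 7.11 CPM in intact buds at 3 h, with the same overlap at 6 h and gap at 3 h (shift 2.42 ± 0.33, adjusted p = 0.000918). A second MET1 gene (Sobic.002G056000) was reversed, with an effect of 0.42 ± 0.13 at 6 h and -1.14 ± 0.13 at 3 h (shift 1.55 ± 0.18, adjusted p = 0.000408).

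All chromatin genes together had 19 positive and 0 negative shifts among 125 tested (15.2% positive, against 2.35% of all genes). Their median shift was 0.20, so the list as a whole moved less than these members. PKL (Sobic.003G377300), a CHD3 remodeller that represses embryonic traits in Arabidopsis, had 7.05, 5.82 and 10.02 CPM in leaf-removed and 8.17, 4.17 and 7.02 CPM in intact buds at 6 h, and 1.52, 1.71 and 1.32 CPM in leaf-removed and 5.79, 6.68 and 10.4 CPM in intact buds at 3 h, overlapping at 6 h and below intact buds at 3 h (shift 2.57 ± 0.45, adjusted p = 0.00476). A jumonji-domain gene (Sobic.001G175000) had 63.4, 67.3 and 70.3 CPM in leaf-removed and 79.8, 67.9 and 62.3 CPM in intact buds at 6 h. At 3 h the gene had 19.1, 20.8 and 20.1 CPM in leaf-removed and 81.1, 87.8 and 101 CPM in intact buds (shift 2.10 ± 0.21, adjusted p = 0.000213), with an effect of -3.57 ± 0.17 at 1 h. Its libraries overlapped at 6 h and lay apart at 3 h. The histone methyltransferase genes SUVH4 shifted by 1.24 and 0.98, the 2 genes of the remodeller DDM1 by 0.82 and 0.74, and FASCIATA1, of the chromatin assembly factor, by 1.58. HMGB3 (Sobic.002G289800), a high mobility group protein of chromatin, had 735, 876 and 509 CPM in leaf-removed and 776, 738 and 550.4 CPM in intact buds at 6 h. At 3 h it had 146, 199 and 195 CPM in leaf-removed and 778, 780.4 and 807 CPM in intact buds (shift 2.17 ± 0.35, adjusted p = 0.00271). The exportin gene XPO1A (Sobic.002G114900) was the 1 called gene of 22 for nuclear pores and transport (shift 1.57 ± 0.33, adjusted p = 0.0147).

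Histone genes had 0 called shifts among 49 in the edgeR test, although their median shift was 1.53 and 44 of the 49 were above 0. At an unadjusted p under 0.05, 31 were positive and 1 negative. DESeq2 called 15 positive and voom 0. The effect at 1 h was called lower in 1 histone gene and higher in 1, that at 3 h in 28 and 0, and that at 6 h in 3 and 2. In leaf-removed buds 34 were called higher at 6 h than at 3 h. The summed level was 6054, 11619 and 14243 CPM in leaf-removed and 5809, 10035 and 11768 CPM in intact buds at 6 h, and 2315, 4270 and 4682 CPM in leaf-removed and 7514, 9468 and 9689 CPM in intact buds at 3 h. The groups overlapped at 6 h, and at 3 h all leaf-removed libraries were lower. The lowest library of leaf-removed buds at 6 h, of intact buds at 6 h and of leaf-removed buds at 3 h is the one that deviates in each group. Without the 5 such libraries 37 histone genes had positive shifts, and single libraries left out gave 0 to 5 (5 without leaf-removed 6 h d, 2 without intact 6 h c).

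**Figure D3:**
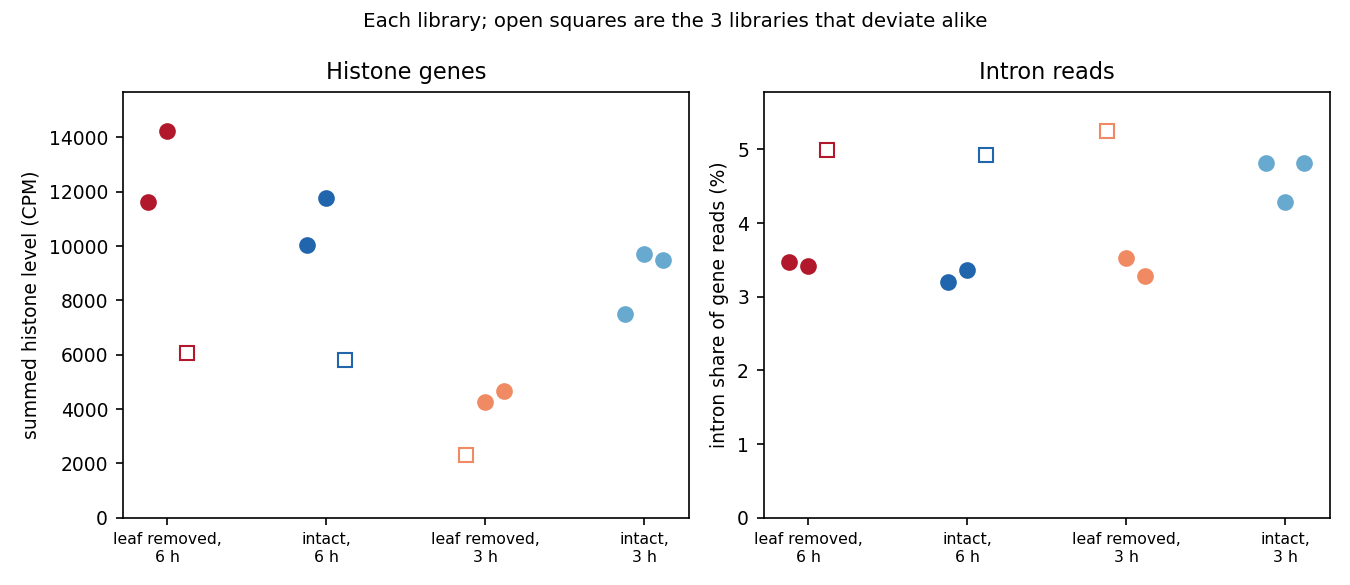
Summed level of 49 histone genes in CPM (left) and intron reads as a percentage of gene reads (right) in each library of the 4 groups, with open squares for the 3 libraries that deviate alike. The open squares are the lowest histone sums and the highest intron shares of their groups.

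Plastid genes formed another group of positive shifts, and here most effects grew. The list of plastid chaperones, proteases and import factors had 16 positive and 0 negative shifts among 51 tested (31.4% positive, against 2.35% of all genes), with a median of 0.43 and 10 growing effects. It also holds 2 iron superoxide dismutases, the fructokinase-like FLN2, PAC and DAG. At 1 h 30 members were called lower and 6 higher, at 3 h 8 and 8, and at 6 h 1 and 27. CPN60A (Sobic.009G098100), a chaperonin subunit that folds Rubisco, had 369, 417 and 394 CPM in leaf-removed and 139.6, 133 and 146 CPM in intact buds at 6 h. Its 3 h levels were 219, 197 and 192 CPM in leaf-removed and 168, 248 and 172 CPM in intact buds. All leaf-removed libraries were above the intact ones at 6 h, and the groups overlapped at 3 h (shift 1.45 ± 0.18, adjusted p = 0.000548). The signal recognition gene CPSRP54 (Sobic.008G039600) was reversed (shift 1.40 ± 0.18, adjusted p = 0.000508), and so was FSD3 (Sobic.010G033000), a superoxide dismutase of plastid nucleoids in Arabidopsis, with 43.6, 40.6 and 40.9 CPM in leaf-removed and 29.7, 23.6 and 29.6 CPM in intact buds at 6 h. The 3 h libraries held 17.1, 19.1 and 15.8 CPM in leaf-removed and 30.04, 31.2 and 29.3 CPM in intact buds (shift 1.39 ± 0.17, adjusted p = 0.000408). The CLP protease genes NCLPP5, NCLPP6 and NCLPP2 shifted by 1.24, 0.85 and 0.64, and the import genes TOC34, TOC75-III and TIC40 by 0.59, 0.55 and 0.51. The photosystem and light-harvesting genes had 0 called shifts among 68 in edgeR, with a median of 0.18, while 8 were positive at an unadjusted p under 0.05 and DESeq2 called 1. EdgeR called 8 without the 5 libraries, 2 without leaf-removed 3 h b and 1 without intact 3 h c.

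Genes of plastid transcription had 6 positive shifts among 27 (22.2%, against 2.35% of all genes). PTAC3 (Sobic.001G228300), a part of the plastid transcription complex in Arabidopsis, had 86.9, 105 and 128 CPM in leaf-removed and 61.8, 55.97 and 78.6 CPM in intact buds at 6 h. Levels at 3 h were 36.01, 27.2 and 26.2 CPM in leaf-removed and 76.97, 71.9 and 70.3 CPM in intact buds (shift 2.0 ± 0.25, adjusted p = 0.000504). PTAC10 (Sobic.003G392000) had 56.2, 76.6 and 77.5 CPM in leaf-removed and 31.6, 39.1 and 35.2 CPM in intact buds at 6 h. Libraries of 3 h had 23.4, 21.6 and 21.6 CPM in leaf-removed and 35.9, 43.96 and 36.3 CPM in intact buds (shift 1.79 ± 0.18, adjusted p = 0.000213). Both were above all intact libraries at 6 h and below them at 3 h. PTAC13, PTAC12 and PTAC2 shifted by 1.17, 0.85 and 0.59, and SIG2 (Sobic.005G110481), a sigma factor of the plastid polymerase, by 1.11 ± 0.19, although only about 10% of its exon reads were unique, so that they may belong to a near-identical copy. Pentatricopeptide repeat genes, whose products process organelle RNA, had 11 positive shifts among 256 (4.30%, against 2.35% of all genes), with a median of 0.33. Among them were Sobic.001G479900 (shift 1.49 ± 0.27, adjusted p = 0.00510), Sobic.003G325900 (shift 1.23 ± 0.25, adjusted p = 0.00951) and Sobic.009G041800 (shift 0.99 ± 0.18, adjusted p = 0.00592). The count of 11 fell to 4 without leaf-removed 3 h c and to 5 without leaf-removed 6 h b or d, intact 6 h a, leaf-removed 3 h d or intact 3 h c.

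Ribosomal protein genes had 12 positive shifts among 288 tested (4.17%, against 2.35% of all genes), with a median of 0.22. Most of the 12 encode types that work in plastids in Arabidopsis. S1 (Sobic.001G391400) had 94.995, 112 and 106 CPM in leaf-removed and 75.2, 70.7 and 80.5 CPM in intact buds at 6 h, and 54.5, 53.9 and 48.6 CPM in leaf-removed and 77.8, 94.97 and 81.8 CPM in intact buds at 3 h, and lay above intact buds at 6 h and below them at 3 h (shift 1.16 ± 0.14, adjusted p = 0.000504). L17 (Sobic.001G040000) was reversed too (shift 1.17 ± 0.19, adjusted p = 0.00217), and L13 (Sobic.003G295800) grew, with effects of 1.03 ± 0.13 at 6 h and 0.0057 ± 0.13 at 3 h (shift 1.02 ± 0.18, adjusted p = 0.00541). Of the 288, 154 were called higher at 6 h, against 18% of all genes, and 88 at 3 h, against 17.8%. The count was 7 without leaf-removed 3 h d. Translation factors had 3 positive shifts and 1 negative among 82 (3.66% and 1.22%, against 2.35% and 0.902% of all genes). They included the elongation factors EF-P (Sobic.008G030000, shift 1.36 ± 0.24, adjusted p = 0.00437) and EF-Ts (Sobic.002G405100, shift 1.06 ± 0.17, adjusted p = 0.00260), both of bacterial type. The initiation factor SUI1 (Sobic.002G324200) had a negative shift of -1.14 ± 0.27 that was lost in 8 of 12 such fits, highest adjusted p = 0.0931. A NOP56-like gene of ribosome biogenesis (Sobic.003G407800) shifted by 0.53 ± 0.13, lost in 7 of 12 such fits, highest adjusted p = 0.0854, and a Rieske subunit gene of mitochondrial respiration (Sobic.006G058900) by 0.56 ± 0.14, lost in 9 of 12 such fits, highest adjusted p = 0.119.

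**Figure D4:**
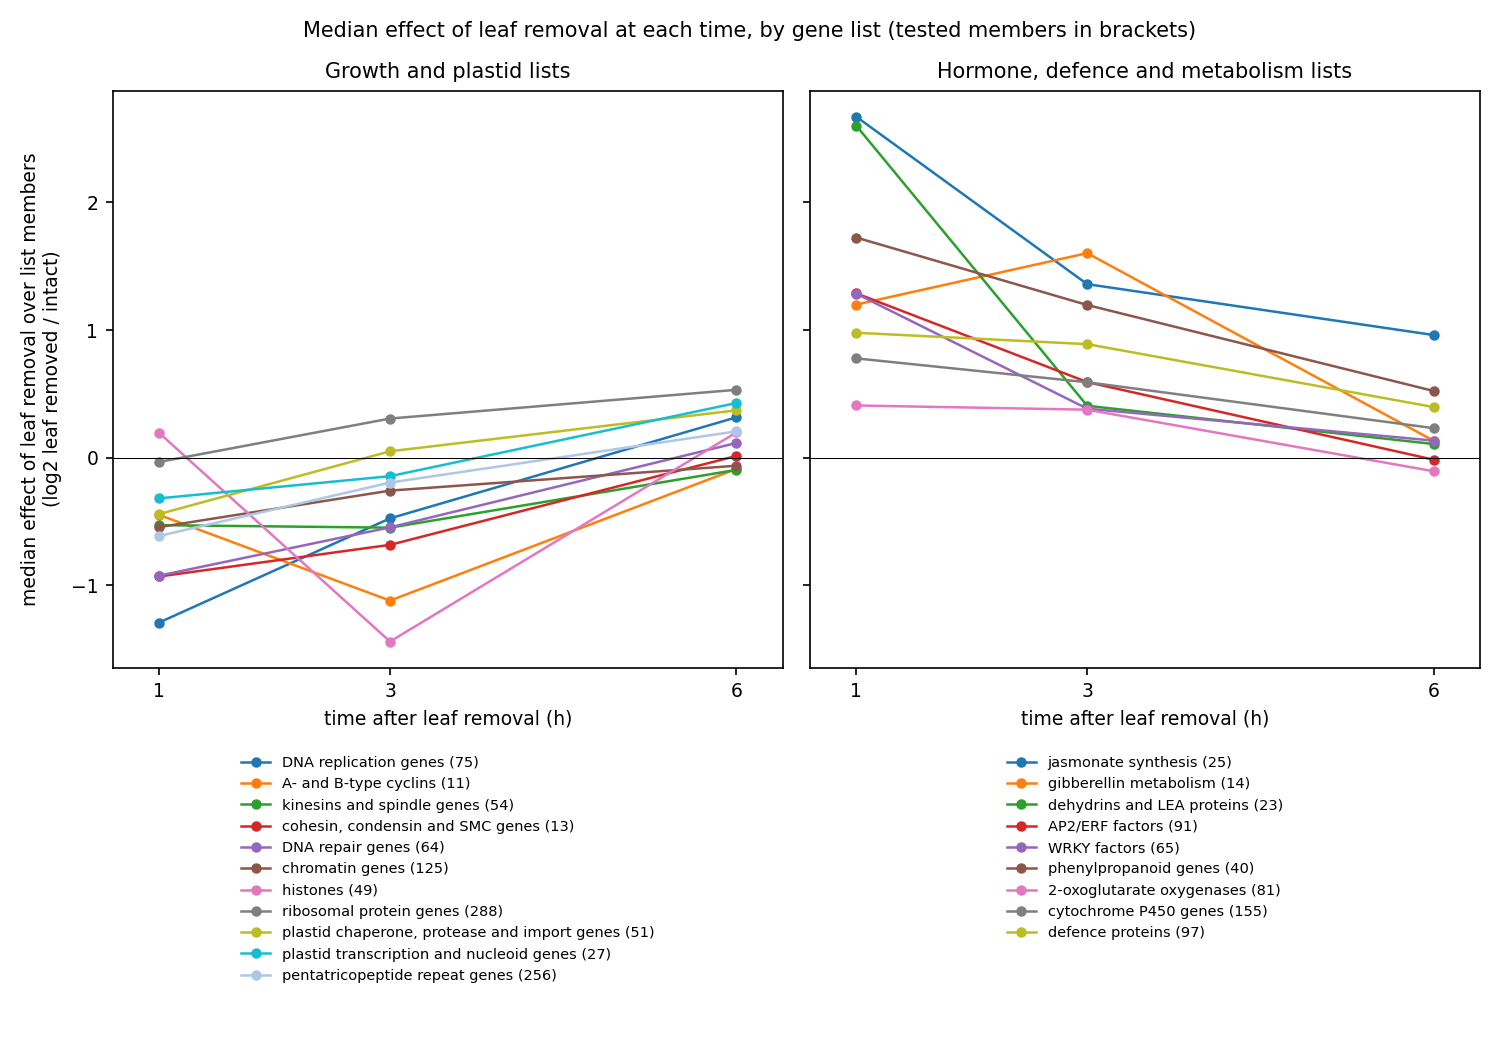
Median log2 effect of leaf removal (vertical axis) over the tested members of 11 growth and plastid lists (left) and 9 hormone, defence and metabolism lists (right) at 1, 3 and 6 h, 1 line a list. All 11 medians on the left are higher at 6 h than at 3 h and all 9 on the right are lower, and the lists were chosen for these panels with their values known.

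The single genes with the largest positive shifts included PKL, MET1, CMT3 and HMGB3, above, and others from further families. An O-methyltransferase gene (Sobic.005G101900) had 488, 524 and 513 CPM in leaf-removed and 47.2, 37.2 and 31.9 CPM in intact buds at 6 h, and 115, 86.1 and 99.6 CPM in leaf-removed and 38.2, 49.9 and 58.7 CPM in intact buds at 3 h, above intact buds at both times and further above at 6 h (shift 2.68 ± 0.32, adjusted p = 0.000445). The table names 2 genes PRP4, a proline-rich protein of cell walls. Of these Sobic.001G265900 had 82.05, 151 and 70.4 CPM in leaf-removed and 39.9, 33.7 and 37.02 CPM in intact buds at 6 h. The level at 3 h was 17.1, 13.9 and 11.7 CPM in leaf-removed and 36.4, 26.6 and 33.9 CPM in intact buds (shift 2.64 ± 0.33, adjusted p = 0.000508). The other, Sobic.001G266200, had 135, 264 and 91.5 CPM in leaf-removed and 26.5, 39.2 and 44.3 CPM in intact buds at 6 h. For 3 h the values were 29.4, 40.4 and 49.05 CPM in leaf-removed and 43.9, 62.4 and 45.5 CPM in intact buds (shift 2.51 ± 0.49, adjusted p = 0.00858). Both lay above all intact libraries at 6 h. A class III peroxidase gene (Sobic.005G011200), of a family that cross-links walls, had 13.4, 10.3 and 9.12 CPM in leaf-removed and 2.17, 1.35 and 1.67 CPM in intact buds at 6 h, and 2.04, 2.05 and 2.83 CPM in leaf-removed and 2.05, 1.46 and 1.62 CPM in intact buds at 3 h, apart at 6 h and overlapping at 3 h (shift 2.23 ± 0.43, adjusted p = 0.00791). An N-acetyltransferase gene (Sobic.009G119700) was reversed (shift 2.33 ± 0.34, adjusted p = 0.00123), and so was the helicase-like gene SRS2 (Sobic.002G310300, shift 2.26 ± 0.30, adjusted p = 0.000904). PGIP1 (Sobic.006G117500), an inhibitor of fungal pectinases, was low, with 0.827, 0.676 and 0.573 CPM in leaf-removed and 0.0851, 0.0366 and 0.126 CPM in intact buds at 6 h. At 3 h the gene had 0.09697, 0.149 and 0.0378 CPM in leaf-removed and 7.47, 1.09 and 0.638 CPM in intact buds (shift 7.93 ± 1.59, adjusted p = 0.0100), and the intact libraries of 3 h were far apart.

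Carbon metabolism gave single calls. BAM5 (Sobic.002G329500), a beta-amylase that cleaves starch-type glucans, had 125, 146 and 141 CPM in leaf-removed and 56.3, 72.6 and 65.8 CPM in intact buds at 6 h, and 89.8, 63.2 and 63.8 CPM in leaf-removed and 87.8, 75.8 and 74.3 CPM in intact buds at 3 h, apart at 6 h and overlapping at 3 h (shift 1.22 ± 0.20, adjusted p = 0.00321). PHS2 (Sobic.003G358600), a glucan phosphorylase, shifted by 0.97 ± 0.20 (adjusted p = 0.0114), with 56% of its reads unique. Glycolysis and fermentation genes had 4 positive and 1 negative shifts among 114 (2.35% and 0.902% of all genes). The 4 fell to 1 or 2 in 9 of the 12 leave-one-out fits, to 1 without leaf-removed 6 h d, leaf-removed 3 h d or intact 3 h b. The triosephosphate isomerase gene TPI (Sobic.003G352300) shifted by 1.32 ± 0.26 (adjusted p = 0.00827), a phosphoglycerate kinase gene (Sobic.009G183700) by 0.68 ± 0.16, lost in 5 of 12 such fits, highest adjusted p = 0.0604, and a phosphoglycerate mutase family gene (Sobic.006G002100) by -1.18 ± 0.20 (adjusted p = 0.00359). A neutral invertase gene (Sobic.001G391600), whose product splits sucrose, shifted by 0.62 ± 0.16 and was lost in 10 of 12 such fits, highest adjusted p = 0.114. In the sterol pathway SMT1 (Sobic.002G073700) was reversed (shift 0.60 ± 0.11, adjusted p = 0.00665), while CAS1 (Sobic.008G167100), at 1.56 ± 0.39, was lost in 9 of 12 such fits, highest adjusted p = 0.102. FAR1 (Sobic.007G170100), an acyl reductase of wax and suberin alcohols, shifted by 0.98 ± 0.20 (adjusted p = 0.0128). The purple acid phosphatase gene PAP3 (Sobic.001G442200), at 0.89 ± 0.22, was lost in 8 of 12 such fits, highest adjusted p = 0.118, and SRG3 (Sobic.007G190700), at 0.91 ± 0.20, was lost without leaf-removed 6 h d (adjusted p = 0.0506).

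Negative shifts included single genes of several hormones, and other hormone lists had none called. In jasmonate synthesis 1 shift was positive and 1 negative among 25 genes (median -0.38). The positive call was lost in some leave-one-out fits, 2 were negative without leaf-removed 3 h b, and 1 was positive and 9 negative among 26 without the 5 libraries. LOX1 (Sobic.001G125700), a lipoxygenase, had 3.81, 6.45 and 4.49 CPM in leaf-removed and 2.04, 2.56 and 1.67 CPM in intact buds at 6 h. At 3 h it had 18.5, 56.7 and 35.9 CPM in leaf-removed and 2.31, 2.78 and 1.04 CPM in intact buds. All leaf-removed libraries lay above the intact ones at both times, by 1.25 ± 0.41 at 6 h and 4.19 ± 0.43 at 3 h, after 5.26 ± 0.44 at 1 h (shift -2.95 ± 0.58, adjusted p = 0.00892). OPR2 (Sobic.004G180500), an oxophytodienoate reductase, shifted up by 1.05 ± 0.25 and was lost in 6 of 12 such fits, highest adjusted p = 0.0769. OPR3 (Sobic.007G151100), the reductase of the jasmonate route in Arabidopsis, was not called, with a shift of -0.59 ± 0.26 (adjusted p = 0.280; 0.0285 without the 5 libraries). The JAZ and jasmonate signalling genes had 0 calls among 21 by edgeR, DESeq2 and voom, and 1 at an unadjusted p under 0.05, with 15 members called higher at 6 h and 16 at 3 h. Without the 5 libraries edgeR called 5 negative among 22.

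In abscisic acid synthesis and breakdown 2 of 14 genes had negative shifts. CYP707A4 (Sobic.002G225400), a hydroxylase that breaks the hormone down in Arabidopsis, had 7.59, 6.74 and 6.35 CPM in leaf-removed and 6.77, 9.62 and 6.48 CPM in intact buds at 6 h. Its 3 h levels were 29.1, 29.7 and 44.9 CPM in leaf-removed and 9.53, 9.41 and 6.15 CPM in intact buds. The groups overlapped at 6 h, and at 3 h leaf-removed buds lay above (shift -2.19 ± 0.35, adjusted p = 0.00227), after an effect of 5.39 ± 0.29 at 1 h. ABA2 (Sobic.006G041700), a late step of synthesis, shifted by -1.38 ± 0.31 and was lost in 5 of 12 such fits, highest adjusted p = 0.0695. The carotenoid cleavage gene CCD4 (Sobic.004G268500), annotated NCED4, had 2.81, 2.87 and 0.525 CPM in leaf-removed and 2.04, 3.44 and 1.79 CPM in intact buds at 6 h, and 1.26, 6.93 and 8.96 CPM in leaf-removed and 1.61, 1.65 and 1.62 CPM in intact buds at 3 h, with overlap at both times (shift -2.02 ± 0.92, adjusted p = 0.293; 0.00304 without the 5 libraries). The NCED9 genes Sobic.002G037400 and Sobic.001G155300 shifted by -0.52 ± 1.82 and -0.36 ± 0.99, and the CCD1 genes Sobic.001G509200 and Sobic.010G050300 by 0.21 ± 0.35 and 0.96 ± 0.66, none of them called. The receptor gene PYL5 (Sobic.001G403300) shifted by -2.18 ± 0.57 and was lost in 10 of 12 such fits, highest adjusted p = 0.129.

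Other hormone genes with negative shifts were single ones. BR6OX2 (Sobic.001G172400), the last oxidase of brassinosteroid synthesis in Arabidopsis, had 19.999, 18.3 and 17.8 CPM in leaf-removed and 12.5, 12.1 and 10.6 CPM in intact buds at 6 h, and 61.7, 56.5 and 73.04 CPM in leaf-removed and 10.8, 13.8 and 12.9 CPM in intact buds at 3 h, above intact buds at both times (shift -1.68 ± 0.19, adjusted p = 0.000263). GA20OX1 (Sobic.009G142400), which makes gibberellin precursors, shifted by -2.08 ± 0.53, lost in 10 of 12 such fits, highest adjusted p = 0.128, in a list of 14 whose median shift was -1.29. CKX1 (Sobic.003G421100), which degrades cytokinin, had 1.94, 1.52 and 1.77 CPM in leaf-removed and 31.1, 25.9 and 19.3 CPM in intact buds at 6 h, and 5.95, 4.13 and 4.08 CPM in leaf-removed and 26.2, 25.3 and 34.8 CPM in intact buds at 3 h, below intact buds at both times and further below at 6 h (shift -1.27 ± 0.29, adjusted p = 0.0215), and the call was lost in 5 of 12 such fits, highest adjusted p = 0.0791. The auxin repressor gene IAA3 (Sobic.002G055900) shifted by -1.40 ± 0.34, lost in 9 of 12 such fits, highest adjusted p = 0.0995. The cytokinin response regulators had 0 called shifts among 17 by edgeR, against 4 negative at an unadjusted p under 0.05 and 3 by DESeq2. Without leaf-removed 3 h b edgeR called 2 of them negative, and without the 5 libraries 6. The SAUR genes had 0 among 37 by edgeR, against 7 negative at an unadjusted p under 0.05 and 1 by DESeq2. Their edgeR count was 3 negative without leaf-removed 3 h b and 8 without the 5 libraries.

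Defence and stress genes gave some of the largest negative shifts without forming called lists. CYS2 (Sobic.003G400400), a phytocystatin that inhibits cysteine proteases, had 0.108, 0.242 and 0.191 CPM in leaf-removed and 0.638, 1.39 and 0.693 CPM in intact buds at 6 h. The 3 h libraries held 2.65, 2.05 and 2.91 CPM in leaf-removed and 0.916, 0.375 and 0.5801 CPM in intact buds. It lay below all intact libraries at 6 h and above all at 3 h (shift -4.29 ± 0.59, adjusted p = 0.000918). CYSB (Sobic.003G327700) shifted by -1.10 ± 0.23 (adjusted p = 0.0123). WRKY70 (Sobic.008G060300), a regulator of salicylate responses in Arabidopsis, had 1.01, 0.531 and 0.382 CPM in leaf-removed and 5.87, 9.44 and 8.44 CPM in intact buds at 6 h, and 4.53, 21.3 and 3.36 CPM in leaf-removed and 4.98, 5.74 and 8.38 CPM in intact buds at 3 h, below intact buds at 6 h and overlapping at 3 h (shift -4.22 ± 0.78, adjusted p = 0.00618). WRKY40 (Sobic.002G202700) was read in few libraries, with 0, 0 and 0 CPM in leaf-removed and 0, 0.146 and 0.189 CPM in intact buds at 6 h, and 0.937, 9.42 and 0.265 CPM in leaf-removed and 0, 0 and 0 CPM in intact buds at 3 h, so that no fold is given. Its call was lost in 8 of 12 such fits, highest adjusted p = 0.104. A chitinase-like gene (Sobic.005G110600), at 1.44 ± 0.33, was lost in 5 of 12 such fits, highest adjusted p = 0.0749. The 97 defence protein genes had a median shift of -0.44 with 2 negative calls, and the 65 WRKY genes -0.39 with 2. The WRKY count was 1 in 7 of the leave-one-out fits, 4 without leaf-removed 3 h b and 10 without the 5 libraries, where the defence count was 15.

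Among stress proteins, the dehydrin gene XERO1 (Sobic.009G116700) had 2.12, 2.39 and 1.81 CPM in leaf-removed and 1.19, 3.805 and 1.54 CPM in intact buds at 6 h, and 26.9, 56.1 and 78.1 CPM in leaf-removed and 6.301, 3.49 and 0.667 CPM in intact buds at 3 h, overlapping at 6 h and above at 3 h (shift -4.0 ± 0.83, adjusted p = 0.0123). This call was lost without intact 6 h c (adjusted p = 0.0580). HSP70 (Sobic.001G420100) had 10.9, 11.2 and 7.302 CPM in leaf-removed and 3.62, 3.95 and 2.11 CPM in intact buds at 6 h, and 28.3, 45.2 and 68.9 CPM in leaf-removed and 2.198, 2.36 and 3.22 CPM in intact buds at 3 h, above intact buds at both times (shift -2.56 ± 0.51, adjusted p = 0.00896). Heat shock genes as a list were split, with 4 positive and 5 negative shifts among 214 (1.87% and 2.34%, against 2.35% and 0.902% of all genes). The J-domain cochaperones were on both sides, with Sobic.002G113400 (shift 1.76 ± 0.25, adjusted p = 0.00111) and Sobic.004G079200 (shift 1.15 ± 0.19, adjusted p = 0.00282) positive and Sobic.002G383000 (shift -1.09 ± 0.20, adjusted p = 0.00524) negative. The negative count was 2 without leaf-removed 6 h b and 3 without leaf-removed 3 h c, intact 6 h c, intact 3 h b or intact 3 h c.

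The 2-oxoglutarate oxygenases, a large family of oxidising enzymes, had 7 negative and 0 positive shifts among 81 (8.64% negative, against 0.902% of all genes), with a median of -0.42. This list was drawn up after the calls were seen, so its count supports nothing on its own. DMR6 in Arabidopsis removes salicylate and limits resistance, and Sobic.001G526900, which carries that name, had 2.52, 2.198 and 1.67 CPM in leaf-removed and 2.77, 2.63 and 2.14 CPM in intact buds at 6 h, and 13.4, 32.3 and 7.97 CPM in leaf-removed and 1.98, 2.81 and 2.55 CPM in intact buds at 3 h, overlapping at 6 h and above at 3 h (shift -3.09 ± 0.61, adjusted p = 0.00911). The other DMR6 gene (Sobic.006G190000) stayed above intact buds at both times (shift -3.13 ± 0.70, adjusted p = 0.0199) and was lost without leaf-removed 6 h d, intact 6 h c or leaf-removed 3 h c (highest adjusted p = 0.0625). A further member (Sobic.010G059900), at -1.20 ± 0.29, was lost in 7 of 12 such fits, highest adjusted p = 0.0932. Leaving out any of 10 single libraries brought the 7 down to 1 to 4, the lowest without intact 6 h c or leaf-removed 3 h c. A mannose-binding lectin gene (Sobic.002G093700) shifted by -1.31 ± 0.32 and was lost in 8 of 12 such fits, highest adjusted p = 0.119, and of the NB-ARC resistance genes Sobic.005G075800 shifted by 1.25 ± 0.25, Sobic.002G128300 by -2.63 ± 0.68 and Sobic.003G154700 by -0.81 ± 0.18. The second and the third of these were lost in 9 of 12 such fits, highest adjusted p = 0.126, and in 5 of 12 such fits, highest adjusted p = 0.0628.

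Detoxification and signalling genes added single calls. CYP72A15 (Sobic.003G228000) had 50.9, 49.8 and 54.8 CPM in leaf-removed and 40.3, 44.7 and 47.3 CPM in intact buds at 6 h, and 156, 122 and 116 CPM in leaf-removed and 45.8, 34.6 and 37.9 CPM in intact buds at 3 h, above intact buds at both times (shift -1.51 ± 0.19, adjusted p = 0.000507). GSTZ2 (Sobic.004G182800), a glutathione transferase, shifted by -0.95 ± 0.18 (adjusted p = 0.00718). The glycosyltransferase gene UGT73C1 (Sobic.004G087100) had 0.755, 0.821 and 0.668 CPM in leaf-removed and 0.0851, 0.256 and 0.0944 CPM in intact buds at 6 h, and 2.07, 2.64 and 3.36 CPM in leaf-removed and 0.0733, 0.07501 and 0 CPM in intact buds at 3 h, and its call was lost in 7 of 12 such fits, highest adjusted p = 0.161. Another glycosyltransferase gene (Sobic.004G338100) shifted up by 1.12 ± 0.29, lost in 9 of 12 such fits, highest adjusted p = 0.128. MAP3KA (Sobic.005G105000), a kinase at the head of a MAP kinase cascade, shifted by -1.19 ± 0.25 (adjusted p = 0.0118), and MPK9 (Sobic.003G236000) by 1.0 ± 0.24, lost in 8 of 12 such fits, highest adjusted p = 0.0808. The calmodulin-binding IQD6 genes shifted by 1.21 ± 0.23 (Sobic.003G032200, adjusted p = 0.00665) and 0.80 ± 0.18 (Sobic.003G273800), the second lost in 5 of 12 such fits, highest adjusted p = 0.0622, and another calmodulin-binding gene (Sobic.002G319300) by 1.19 ± 0.29, lost in 7 of 12 such fits, highest adjusted p = 0.0975.

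Transport, wall and nitrogen genes were next. The tonoplast aquaporin gene TIP4;1 (Sobic.009G085900) had 8.81, 7.61 and 8.64 CPM in leaf-removed and 4.21, 7.76 and 5.01 CPM in intact buds at 6 h. Levels at 3 h were 4.85, 6.18 and 7.14 CPM in leaf-removed and 0.733, 0.375 and 0.754 CPM in intact buds. Between 6 h and 3 h its log2 change was 0.46 ± 0.30 in leaf-removed and 3.17 ± 0.35 in intact buds, so the intact buds carried the shift (shift -2.71 ± 0.46, adjusted p = 0.00333). TIP2;1 (Sobic.010G146100) had 7.59, 5.24 and 3.96 CPM in leaf-removed and 80.95, 86.1 and 68.3 CPM in intact buds at 6 h, and 21.7, 27.2 and 25.7 CPM in leaf-removed and 75.4, 84.7 and 67.6 CPM in intact buds at 3 h, below intact buds at both times and further below at 6 h (shift -2.19 ± 0.45, adjusted p = 0.0118). ASN1 (Sobic.005G003200), asparagine synthetase and a marker of sugar starvation in Arabidopsis, had 1.69, 1.16 and 1.62 CPM in leaf-removed and 3.75, 4.39 and 3.46 CPM in intact buds at 6 h, and 7.37, 7.93 and 5.86 CPM in leaf-removed and 5.68, 5.59 and 6.27 CPM in intact buds at 3 h, below at 6 h and overlapping at 3 h (shift -1.65 ± 0.35, adjusted p = 0.0153). It was lost without leaf-removed 6 h b (adjusted p = 0.0551) and without leaf-removed 3 h c (0.0510). DIN3 (Sobic.003G148800), of branched-chain amino acid breakdown, shifted by -1.27 ± 0.28, lost in 5 of 12 such fits, highest adjusted p = 0.0624. EXLA1 (Sobic.002G300000), an expansin-like protein, shifted by -1.08 ± 0.25, lost in 7 of 12 such fits, highest adjusted p = 0.0796, and a pectin acetylesterase gene (Sobic.004G269400) by -1.02 ± 0.21, lost without leaf-removed 3 h c (adjusted p = 0.0507). The serine carboxypeptidase gene SCPL27 (Sobic.005G186500) had 44.8, 39.2 and 20.7 CPM in leaf-removed and 5.96, 4.72 and 5.63 CPM in intact buds at 6 h, and 74.5, 166 and 194 CPM in leaf-removed and 2.89, 4.69 and 2.47 CPM in intact buds at 3 h, above intact buds at both times (shift -2.75 ± 0.50, adjusted p = 0.00567). ERF1-2 (Sobic.009G118600), a release factor of translation, had 1.19, 1.18 and 1.098 CPM in leaf-removed and 5.45, 5.56 and 5.67 CPM in intact buds at 6 h. Libraries of 3 h had 2.198, 4.097 and 5.71 CPM in leaf-removed and 3.52, 2.59 and 2.44 CPM in intact buds (shift -2.75 ± 0.44, adjusted p = 0.00228), and a RING finger gene (Sobic.010G023600) shifted by -5.52 ± 1.24, lost in 4 of 12 such fits, highest adjusted p = 0.0629.

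Transcription factor families had few calls, most of them negative. The bZIP42 gene (Sobic.004G252600) had 0.504, 0.555 and 0.477 CPM in leaf-removed and 2.21, 0.841 and 2.298 CPM in intact buds at 6 h, and 3.52, 2.83 and 1.44 CPM in leaf-removed and 0.989, 0.375 and 0.5801 CPM in intact buds at 3 h, below all intact libraries at 6 h and above them at 3 h (shift -3.78 ± 0.68, adjusted p = 0.00528). BIM1 (Sobic.007G223300), a bHLH partner in brassinosteroid responses in Arabidopsis, shifted by -1.39 ± 0.28 (adjusted p = 0.00901). The bHLH genes Sobic.010G145200 and Sobic.001G131300 shifted by -1.09 ± 0.24 and 1.25 ± 0.32, lost in 5 of 12 such fits, highest adjusted p = 0.0628, and in 9 of 12 such fits, highest adjusted p = 0.107. MYB6 (Sobic.009G148100), at -1.24 ± 0.27, was lost without leaf-removed 3 h c, leaf-removed 3 h d or intact 3 h b (highest adjusted p = 0.0577), and MYB59 (Sobic.008G133700), at 0.88 ± 0.23, was lost in 10 of 12 such fits, highest adjusted p = 0.124. A CCT motif gene (Sobic.009G259100) shifted by -0.90 ± 0.18 (adjusted p = 0.0100), and CDF1 (Sobic.002G189600), a flowering and clock regulator in Arabidopsis, by 1.16 ± 0.27, lost in 6 of 12 such fits, highest adjusted p = 0.0717. A gene with a C2H2 zinc finger (Sobic.004G064100), at -0.87 ± 0.22, was lost in 11 of 12 such fits, highest adjusted p = 0.124. MFT (Sobic.010G136300), of the PEBP family, had 0.03597, 0 and 0 CPM in leaf-removed and 1.15, 1.54 and 0.693 CPM in intact buds at 6 h, and 0.09697, 0.186 and 0.151 CPM in leaf-removed and 0.4396, 0.563 and 0.638 CPM in intact buds at 3 h, at few reads, and its call was lost in 9 of 12 such fits, highest adjusted p = 0.130. AP2/ERF factors had 0 calls among 91 by edgeR, although 82 of them were below 0 (median -0.78). At an unadjusted p under 0.05, 13 were negative and 1 positive, DESeq2 called 4 negative, and edgeR called 5 negative without leaf-removed 3 h b and 1 without intact 6 h d or leaf-removed 6 h a. Without the 5 libraries 19 were negative and 1 positive. TCP and SBP-box factors had 0 calls among 39 by edgeR, DESeq2 and voom (median -0.44), and 8 negative at an unadjusted p under 0.05. Without the 5 libraries edgeR called 10 of them negative.

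Genes of bud dormancy and branching had no called shift. BRC1 shifted by -0.083 ± 0.25 in Sobic.002G198400, above, and by -0.48 ± 0.81 in Sobic.007G135700, and MAX2 (Sobic.010G043000), of strigolactone perception, by -0.37 ± 0.21 (adjusted p = 0.424). Another BRC1 gene (Sobic.001G121600) and the CCD1 genes Sobic.002G168700 and Sobic.002G168800 had too few reads for the test. The dormancy/auxin-associated genes were lower in all leaf-removed libraries at both times, and all 4 were called higher at 1 h, with a median effect of 1.08. Sobic.001G191200 had 42.5, 37.5 and 55.6 CPM in leaf-removed and 181, 359 and 235 CPM in intact buds at 6 h, and 26.4, 34.2 and 43.1 CPM in leaf-removed and 267, 225 and 224 CPM in intact buds at 3 h, and shifted by 0.27 ± 0.38. Shifts of the other 3 were 0.31 ± 0.31 (Sobic.007G148200), 0.057 ± 0.36 (Sobic.001G377000) and -1.14 ± 0.46 (Sobic.002G213800), with the lowest adjusted p of the 4 at 0.226.

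Tissue lists had few calls. The homeobox list, with the genes of meristems, had 0 called shifts among 78 by edgeR (median -0.32), against 9 negative and 1 positive at an unadjusted p under 0.05, 1 positive by DESeq2 and 16 negative without the 5 libraries. Its summed level was 1391, 1767 and 1877 CPM in leaf-removed and 1877, 2215 and 2297 CPM in intact buds at 6 h, just apart, and 1698, 2247 and 2302 CPM in leaf-removed and 2052, 2219 and 2235 CPM in intact buds at 3 h, overlapping. Secondary wall genes had 0 among 71 by edgeR (median -0.26), against 9 negative and 4 positive at an unadjusted p under 0.05, 1 positive by DESeq2, and 9 negative and 4 positive without the 5 libraries. Their sums overlapped at 6 h, at 1172 to 1368 CPM in leaf-removed and 1022 to 1179 CPM in intact buds, and lay apart at 3 h, at 1293 to 1615 CPM in leaf-removed and 1024 to 1136 CPM in intact buds. Cuticle and wax genes had 1 positive shift among 73 (median -0.27). Whether the share of a tissue in the pools has a part in the shifts was not tested.

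Across all 81 lists 52 had a median shift below 0, while called shifts were positive in 72.3% of cases. Where libraries were scaled by their totals and not by TMM factors, the median over all genes was -0.11 and 60.2% of calls were positive, and without the 5 libraries 50.9% were. Of the 710 genes 622 have an annotated title and 224 are in a list, 177 of these with a positive shift.

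**Figure D5:**
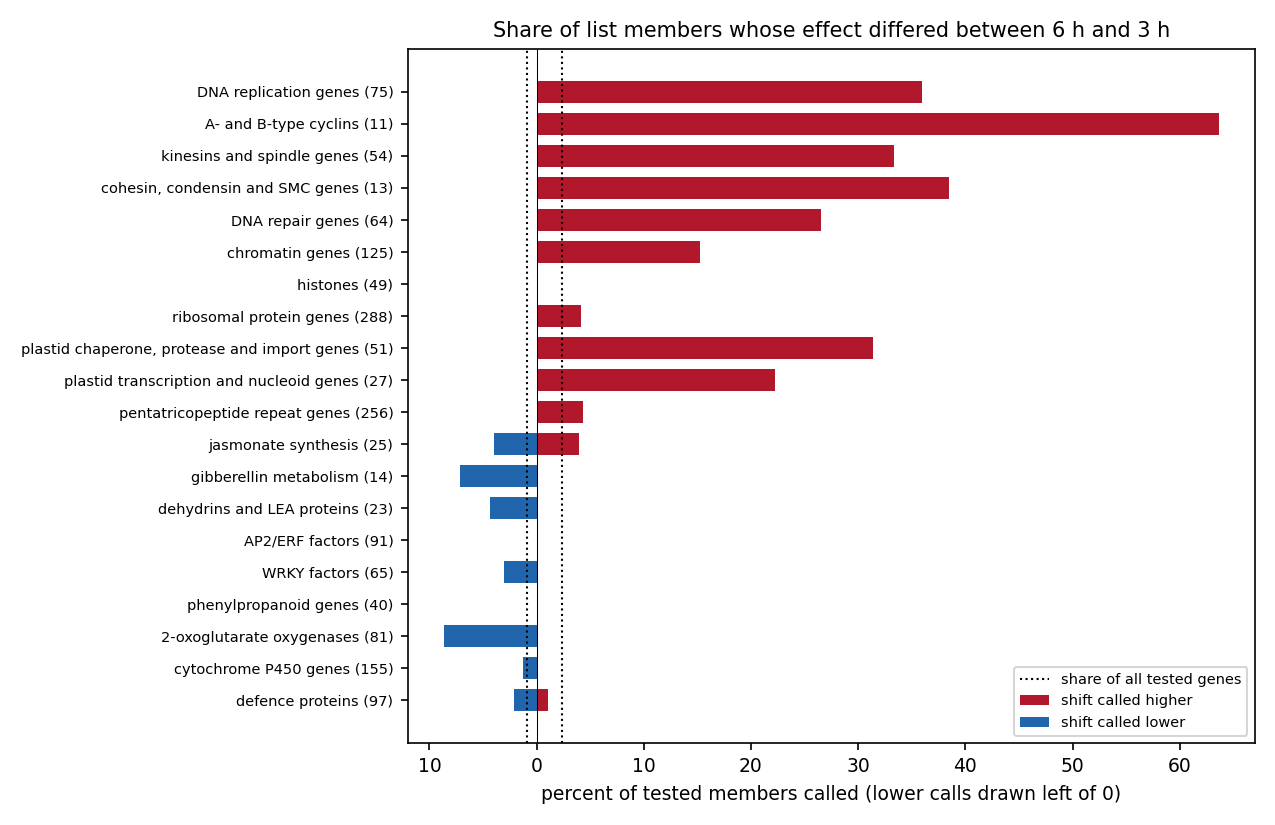
Share of tested members called with a positive (right) and a negative (left) shift for gene lists, in percent, with the shares over all tested genes, 2.35% and 0.902%, as lines. The growth and plastid lists shown, other than histones, exceed the line for positive shifts. The cyclin, cohesin, repair, plastid, pentatricopeptide, oxygenase and P450 lists were drawn up after the calls were seen, so their shares support nothing on their own. All lists were chosen for the plot with their values known.

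Intron reads give a second count of each gene, from the same libraries. The called genes were chosen by the exon reads of these libraries, so their intron values are no independent support. Of the positive-shift genes, 446 could be tested on intron reads, and 346 of them had an intron shift above 0, with a median of 0.55. Among 154 negative-shift genes 121 were below 0, with a median of -0.74. Over all 14725 genes tested on introns 7084 were above 0 and 7640 below. The median over all of them was -0.031, and 2 were called higher and 3 lower. DNA replication genes had a smaller median on introns than on exons. It was 0.20 against 0.78 over the 63 tested on both, with 37 of them above 0 on introns.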

How the data were processed

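RNA of first axillary buds was sequenced as 125 bp reads from TruSeq libraries, per the labels' protocols. The deposited table holds, for each gene and library, counts of total exon reads, unique exon reads and intron reads. Aligner and genome build are not given in the sources used here. All deposited counts were used as they stand, and 72 other per-sample columns were not used. Among the 34211 genes, 25851 have an Arabidopsis locus in the table, 23860 a title and 11243 a symbol. No RefSeq entry matched these identifiers, so positions and sequences are not used here.

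Total exon reads of all 18 libraries were fitted as 6 groups with edgeR 4.0.16 in R 4.3.3, TMM normalization, filterByExpr (21852 genes kept) and the quasi-likelihood F test on 12 residual degrees of freedom. The common biological coefficient of variation was 24.9%. The shift is the contrast of leaf-removed minus intact at 6 h, minus the same at 3 h, and values after ± are standard errors unless SD is named. A gene was called at a Benjamini-Hochberg adjusted p under 0.05, with the adjustment over the whole table. CPM used TMM factors. Depth was 21.4 to 45.8 M exon reads a library, 97.0% to 97.6% of them unique, and reads carry no molecular identifiers, so PCR copies are counted too. Tables and figures used Python 3.11.15, numpy 2.4.6, pandas 2.3.3 and matplotlib 3.10.9. The test was also run on counts simulated with the depth and spread of these libraries. There edgeR called 0 of 67 shifts of 1.5-fold, 9 of 67 of 2-fold and 39 of 66 of 4-fold. Of 21652 genes without a shift 5 were called. Each count was drawn on its own, so the deviation that libraries share is absent from this check. A list without calls may still hold shifts of such sizes.

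Named genes were the 10 highest and 10 lowest called shifts among annotated genes with at least 5 CPM in the highest group and 10 reads in the lowest, up to 3 called members per list by p, the 5 largest reversed effects, and BRC1, MAX2, OPR3, NCED, CCD and dormancy-associated genes whatever their result. Other members are printed because they are called members of a list, and the genes in the plot of single genes were picked by hand. The 81 lists came from annotation words. The members, lists, alternatives and rules were chosen with earlier results of these data known. Of the lists, 27 were added after the annotation and the calls of the fit were seen, among them the MCM, polymerase, cohesin, repair, methyltransferase, topoisomerase, cyclin type, pentatricopeptide, plastid and oxygenase lists, and some wrongly matched members were removed then, so their counts support nothing on their own. Alternatives were DESeq2 1.42.0, its size factors, library totals, no filter, a filter of 1 CPM in 9 libraries, voom (limma 3.58.1), the 12 libraries alone, unique reads, replicate blocks, the intron share as a covariate, omission of the 5 libraries that deviate alike, and each of the 12 libraries left out.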

Additional observations from a re-analysis of the deposited data

Results flagged for a closer look

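The effect of leaf removal differed between 6 h and 3 h, by the test of the difference itself, for each of 119 named genes, 76 with a positive and 43 with a negative shift. Of them 78 were called in each of the 12 leave-one-out fits and 41 were lost in at least 1. Values below are shifts on the log2 scale, 6 h minus 3 h. The groups have 3 libraries, too few to test single libraries for outliers.

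Among replication genes the shifts were 1.51 (ORC1A), 1.75 (MCM3), 1.07 (the second MCM3), 1.15 (MCM8), 1.64 (primase), 1.08 (RFC2) and 1.39 (EMB2780). Cyclins followed with 2.03 (CYCA2;3), 1.32 (CYCA3;1), 1.07 (CYCB2;4) and 1.01 (CYCD1;1). For kinesins they were 1.67 (PAKRP1), 1.62 (ATK5) and 1.48 (KP1). Chromosome structure and topoisomerase genes gave 2.11 (SMC3), 1.90 (SMC2), 1.43 (SYN4), 1.73 (TOPII), 1.61 (TOP3A) and 1.67 (Sobic.010G116800). DNA repair gave 1.69 (BARD1), 1.51 (BRCA1) and 1.67 (MSH7). Methylation, chromatin and nuclear transport genes had 2.35 (CMT3), 2.42 (MET1), 1.55 (the second MET1), 2.57 (PKL), 2.10 (the jumonji gene), 2.17 (HMGB3) and 1.57 (XPO1A). Plastid genes had 1.45 (CPN60A), 1.40 (CPSRP54), 1.39 (FSD3), 2.0 (PTAC3), 1.79 (PTAC10) and 1.11 (SIG2). In organelle RNA processing and translation the values were 1.49 (Sobic.001G479900), 1.23 (Sobic.003G325900), 0.99 (Sobic.009G041800), 1.16 (S1), 1.17 (L17), 1.02 (L13), 1.36 (EF-P), 1.06 (EF-Ts), -1.14 (SUI1), 0.53 (the NOP56-like gene) and 0.56 (the Rieske gene).

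Single positive shifts were 2.68 (the O-methyltransferase), 2.64 (PRP4), 2.51 (the second PRP4), 2.23 (the peroxidase), 2.33 (the N-acetyltransferase), 2.26 (SRS2) and 7.93 (PGIP1). Carbon and lipid genes had 1.22 (BAM5), 0.97 (PHS2), 1.32 (TPI), 0.68 (the phosphoglycerate kinase), -1.18 (the phosphoglycerate mutase), 0.62 (the invertase), 0.60 (SMT1), 1.56 (CAS1), 0.98 (FAR1), 0.89 (PAP3) and 0.91 (SRG3). Hormone genes had -2.95 (LOX1), 1.05 (OPR2), -2.19 (CYP707A4), -1.38 (ABA2), -2.18 (PYL5), -1.68 (BR6OX2), -2.08 (GA20OX1), -1.27 (CKX1) and -1.40 (IAA3). Defence genes had -4.29 (CYS2), -1.10 (CYSB), -4.22 (WRKY70), 1.44 (the chitinase-like gene), -1.31 (the lectin), 1.25 (Sobic.005G075800), -2.63 (Sobic.002G128300) and -0.81 (Sobic.003G154700). Stress proteins and oxygenases had -4.0 (XERO1), -2.56 (HSP70), 1.76 (Sobic.002G113400), 1.15 (Sobic.004G079200), -1.09 (Sobic.002G383000), -3.09 (DMR6), -3.13 (the second DMR6) and -1.20 (Sobic.010G059900). In detoxification and signalling there were -1.51 (CYP72A15), -0.95 (GSTZ2), -3.40 (UGT73C1), 1.12 (Sobic.004G338100), -1.19 (MAP3KA), 1.0 (MPK9), 1.21 (IQD6), 0.80 (the second IQD6) and 1.19 (Sobic.002G319300). Transport, wall and nitrogen genes had -2.71 (TIP4;1), -2.19 (TIP2;1), -1.65 (ASN1), -1.27 (DIN3), -1.08 (EXLA1), -1.02 (the pectin acetylesterase), -2.75 (SCPL27), -2.75 (ERF1-2) and -5.52 (the RING gene). Transcription factor genes had -3.78 (bZIP42), -1.39 (BIM1), -1.09 (Sobic.010G145200), 1.25 (Sobic.001G131300), -1.24 (MYB6), 0.88 (MYB59), -0.90 (the CCT gene), 1.16 (CDF1) and -0.87 (the C2H2 gene). The fitted shifts of WRKY40 (-14.49) and MFT (-4.28) rest on groups with at most a few reads and are no measure of size.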

How the results depend on the processing

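Among 513 positive and 197 negative shifts, with 362 receding, 218 growing and 130 reversed effects, DESeq2 gave 853, 501, 664, 511 and 152. The intron share as a covariate gave 1304, 667, 932, 759 and 274, and leaving out the 5 libraries gave 1940, 1869, 1802, 1475 and 443. Leaving out each library in turn gave 333 to 742 positive, 99 to 331 negative, 219 to 546 receding, 113 to 362 growing and 77 to 160 reversed. Single libraries that moved a count by over 1.5 times were these. Positive shifts were 333 without leaf-removed 3 h d and 337 without leaf-removed 6 h b. Negative shifts were 99 without leaf-removed 3 h c or intact 3 h c, 107 without leaf-removed 6 h d, 110 without leaf-removed 6 h b, 116 without leaf-removed 3 h d or intact 3 h b, 125 without intact 6 h a, 129 without intact 3 h a and 331 without leaf-removed 3 h b. Receding effects were 219, 228 and 230 without intact 3 h c, leaf-removed 3 h d and leaf-removed 3 h c, and 546 without leaf-removed 3 h b. Growing effects were 113 and 121 without leaf-removed 6 h b and d, 130 and 135 without leaf-removed 3 h c and d, 138 and 139 without intact 3 h c and b, and 362 without leaf-removed 3 h b. Reversed effects were 77 without leaf-removed 6 h b and 86 without leaf-removed 3 h d. The labels do not say whether replicate letters name shared harvests. Deviations of same-letter libraries correlated at -0.405 to 0.528 over 7 pairs, which cannot decide it. The highest value belongs to 6 h d, where both libraries are among those that deviate alike. With a replicate block over all times the counts were 340, 108, 235, 125 and 88. With a replicate block within each time edgeR called 0, 0, 0, 0 and 0, with 884 positive and 592 negative at an unadjusted p under 0.05, and that fit has fewer degrees of freedom. If letters do name shared harvests within a time, that block is the one that respects them, and no call holds in it. Size factors, library totals, no filter, the stricter filter, voom, the 12 libraries alone and unique reads kept all 5 counts within 1.5 times. Not every named gene kept its sign. The median shift of the 4 dormancy/auxin-associated genes, none of them called, was 0.16 in the main fit and -0.20 without the 5 libraries. Of the 119 called, 1 lost its call under DESeq2 or unique reads, 12 with no filter, 13 with library totals, 16 with voom or the 12 libraries alone, and 2 to 33 with a single library left out. Both replicate blocks cost more, 32 over all times and 119 within each time. Depth limits the low genes WRKY40, MFT, PGIP1 and UGT73C1.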
